A study of Mus musculus with 14 samples.

Results

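Ducts and alveoli of the mammary gland are lined by a basal and a luminal layer of epithelial cells, and the populations P4 and P5 of pregnant mice were compared to describe how basal and luminal cells differ while the gland prepares for milk. P4 and P5 are fractions of dissociated mammary cells separated by flow cytometry with antibodies against the surface proteins CD24 and CD29. All mice were wild type, of the strain FVB/N-J. The 4 arrays analysed, out of 14 in the series, were 2 of P4 and 2 of P5 from pregnant mice, chosen by their labels. P4 and P5 of virgin mice, also wild type and on 2 arrays each, served as the comparison for pregnancy. The labels describe P4 as enriched for mammary stem cells and P5 as enriched for luminal progenitors, although the titles give both the same CD24-positive, CD29-high gate. Day of pregnancy, age and any pooling of animals are not given in the sources used here.

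Basal (myoepithelial) cells lie on the basement membrane, carry a smooth muscle contractile apparatus and squeeze milk out of the alveoli in response to oxytocin. Luminal cells face the lumen. During pregnancy prolactin acting through STAT5 turns many of them into secretory alveolar cells, which make caseins and whey proteins, synthesise fatty acids for milk fat, build lactose in the Golgi and pump zinc, calcium and phosphate into milk. The transcription factors Trp63 and Snai2 are known for basal identity, and Elf5 and Stat5a for the alveolar programme.

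Each array was hybridised with Cy5-labelled RNA of the sorted cells and Cy3-labelled universal mouse reference RNA, a commercial mix of 11 cell lines. Every level below is a log2 ratio, sorted cells over mix, and the 2 values given for a population are those of replicates 1 and 2. A difference is P4 minus P5 on the same log2 scale, averaged over the 2 replicate pairs, with its standard error (SE), and the threshold for a call is 0.05 on the p adjusted by Benjamini and Hochberg's method in a limma fit over all 23646 genes tested. Replicate 1 of P4 and of P5 lay on one slide and were scanned together without the scanner's extended range. They carried 236 (P4) and 111 (P5) saturated Cy5 spots, against 4 (P4) and 15 (P5) on the replicate 2 arrays. Replicate 2 of P4 and of P5 lay on separate slides of another scan. The difference of pair 1 (replicates 1) and that of pair 2 (replicates 2) are thus each measured within one scan. Arrays are samples of sorted bulk RNA, so fewer cells of a type and less RNA per cell cannot be told apart.

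Of the markers given for these populations, Snai2 and Prss23 were far higher in P4 and Acaca was lower. Snai2 (chromosome 16, 14705852 to 14709395 in GRCm38.p6), a zinc finger repressor of epithelial genes, was at 3.32 and 3.52 in P4, against -1.43 and -2.33 in P5. Both P4 arrays lay above both P5 arrays, which made P4 39.3-fold higher (5.29 on the log2 scale, SE 0.31, adjusted p = 2.61e-05). Prss23 (chromosome 7, 89507783 to 89527187), a secreted serine protease, was at 4.44 and 4.15 in P4, against -0.45 and -3.80 in P5. It had the largest positive difference of all genes tested, 6.42 (SE 0.73, adjusted p = 0.000399, 85.8-fold), although its spot was saturated on replicate 1 of P4 and the P5 arrays lay far apart. A second probe gave 2.64. Acaca (chromosome 11, 84129635 to 84401651), which makes the malonyl-CoA for fatty acid synthesis, was at 2.11 and 1.76 in P4, against 4.54 and 4.53 in P5. It was 6.06-fold lower in P4 (-2.60, SE 0.16, adjusted p = 3.47e-05), and 3 other probes of the gene were lower too, by smaller amounts.

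The genes of the 2 sorting antigens also differed. Cd24a, which encodes CD24, was at 1.16 and 1.34 in P4, against 3.90 and 3.59 in P5, and was 5.62-fold lower in P4 (-2.49, adjusted p = 0.000268). Itgb1, which encodes CD29, was at 1.63 and 0.91 in P4, against -0.73 and -1.56 in P5, and was 5.34-fold higher in P4 (2.42, adjusted p = 8.55e-05), with other probes at 1.68 and 0.08. For neither gene did the populations overlap, so at the RNA level they were not alike in the 2 antigens that the titles give them in common. The basal markers as a list were higher in P4 (15 of 18 called, none lower), while the general luminal markers were divided, with 8 of 18 lower and 2 higher in P4 (6 and 5 after median centring of the arrays).

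Limma called 9751 genes (41.2% of those tested), 4561 higher (19.3%) and 5190 lower (21.9%) in P4. Of these, 4152 differed by at least 2-fold, 2355 higher and 1797 lower. Thus 46.8% of the calls were higher in P4, against 75.7% of 7970 calls after median centring of the arrays, which moved the median difference of all genes to 0.08 from -0.05 with loess normalization. The 2 directions were unequal in size: 265 genes were at least 8-fold higher in P4 and 68 at least 8-fold lower. The difference in pair 1 and that in pair 2 correlated at 0.896 over 23609 genes, which are not independent replicates. All 9743 called genes with both pairs measured had 1 sign in both, and in 8757 of them (89.9%) the P4 and P5 arrays did not overlap, against 57.7% of all genes. The calls were made from these same pairs, so neither share is a separate test of them. Where genes named below are said not to overlap, this describes genes mostly chosen for the size of their difference. In 194 genes the Cy5 spot was saturated on at least 1 of the 4 arrays, 163 of them on replicate 1 of P4, and 118 of the 194 were called. A saturated spot understates the level, so for those genes the pair 2 difference is also given where it matters. Each gene is represented by its brightest probe, and of 5992 other probes of called genes 1499 (25%) had the opposite sign, so a value holds for the probe measured. For the lists below, counts of called members stand against the 41.2% called over all genes.

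**Figure D1:**
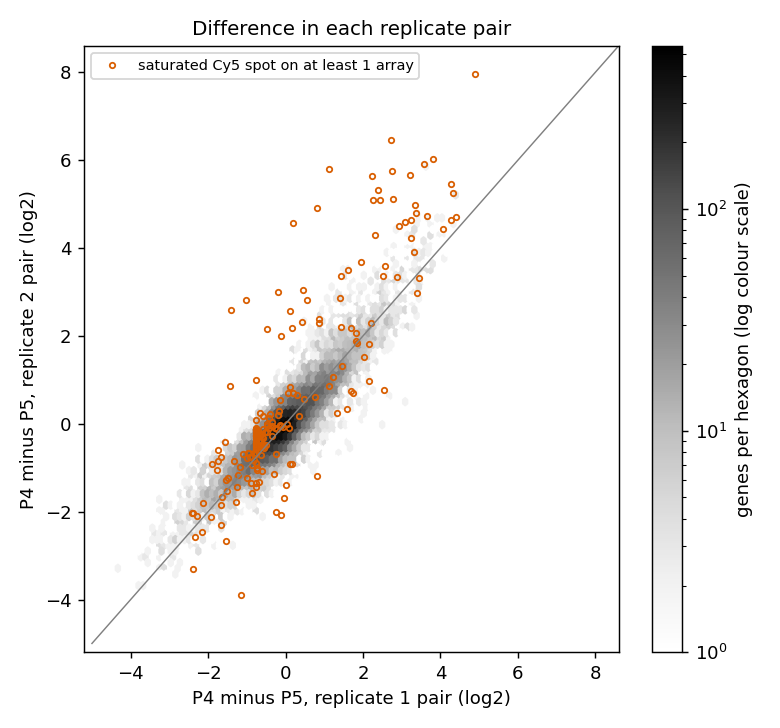
Log2 difference P4 minus P5 in replicate pair 1 (horizontal axis) and replicate pair 2 (vertical axis) for 23609 genes, shaded by the number of genes in each hexagon, with genes that have a saturated Cy5 spot in orange. The cloud follows the diagonal (r = 0.896), and some of the orange genes lie off it, toward larger differences in pair 2.

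Among the genes with the largest positive differences after Prss23 and Snai2, Trp63, the p53 family member of basal epithelia, was at 5.56 and 6.22 in P4, against 1.07 and 0.45 in P5 (5.13, SE 0.38, adjusted p = 6.38e-05, 35.0-fold), with other probes at 1.01 and -0.05. Matn2, a matrix filament protein, was at 3.59 and 2.19 in P4, against -1.57 and -2.95 in P5 (5.15, SE 0.15, adjusted p = 8.82e-06). In both genes the P4 arrays lay above the P5 arrays, by 4.49 and 5.77 in the 2 pairs for Trp63. Spon2 (5.12), a secreted matrix protein, and the alkaline phosphatase Alpl (5.01) followed, with the actin-bundling protein Palld (4.93; other probes at 3.29 and -0.18). Sostdc1, a secreted antagonist of BMP and Wnt signals, was at 5.37 and 5.86 in P4, against 0.95 and 0.66 in P5 (4.81). Ccn2, a matricellular growth factor (4.79), Cav1, the coat protein of caveolae (4.74), and the binding protein Igfbp2 (4.70) were also among the 15 largest, with Sobp (4.88), Clmp (4.80) and Synm (4.78). Palld, Ccn2 and Cav1 were saturated on replicate 1 of P4, so their differences and places in this order are understated, and in pair 2 they differed by 6.04 (Palld), 5.25 (Ccn2) and 5.90 (Cav1).

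The genes with the most negative differences had varied roles. Steap1, a metalloreductase, had the most negative difference, at -2.64 and -2.03 in P4 against 1.41 and 1.70 in P5 (-3.89, SE 0.14, adjusted p = 1.04e-05, 14.8-fold lower). Bhlha15, the transcription factor known as Mist1 that scales up secretory cells, was at 0.32 and 0.83 in P4, against 3.67 and 4.52 in P5 (-3.52), with a second probe at -0.92 that did not pass. Fkbp11, a prolyl isomerase of the endoplasmic reticulum, was at 0.21 and 1.20 in P4, against 3.94 and 4.92 in P5 (-3.73), and a second probe gave -3.67. In none of these genes did the populations overlap. The potassium channels Kcnk6 (-3.80) and Kcnn4 (-3.66), the membrane serine protease Tmprss4 (-3.75), the glycine decarboxylase Gldc (-3.71), the stress-induced nuclear protein Nupr1 (-3.61) and the lipase Aoah, which acts on bacterial endotoxin (-3.57), were in the same group. It also held Kctd16 (-3.81), Efcab3 (-3.79), Slc6a16 (-3.78), Sapcd2 (-3.65) and Add2 (-3.67), though 2 other Add2 probes gave -0.13 and 0.07 and were not called. Cyp3a41a (-3.75) belongs to a cluster of near-identical cytochrome genes, which one probe may not tell apart.

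**Figure D2:**
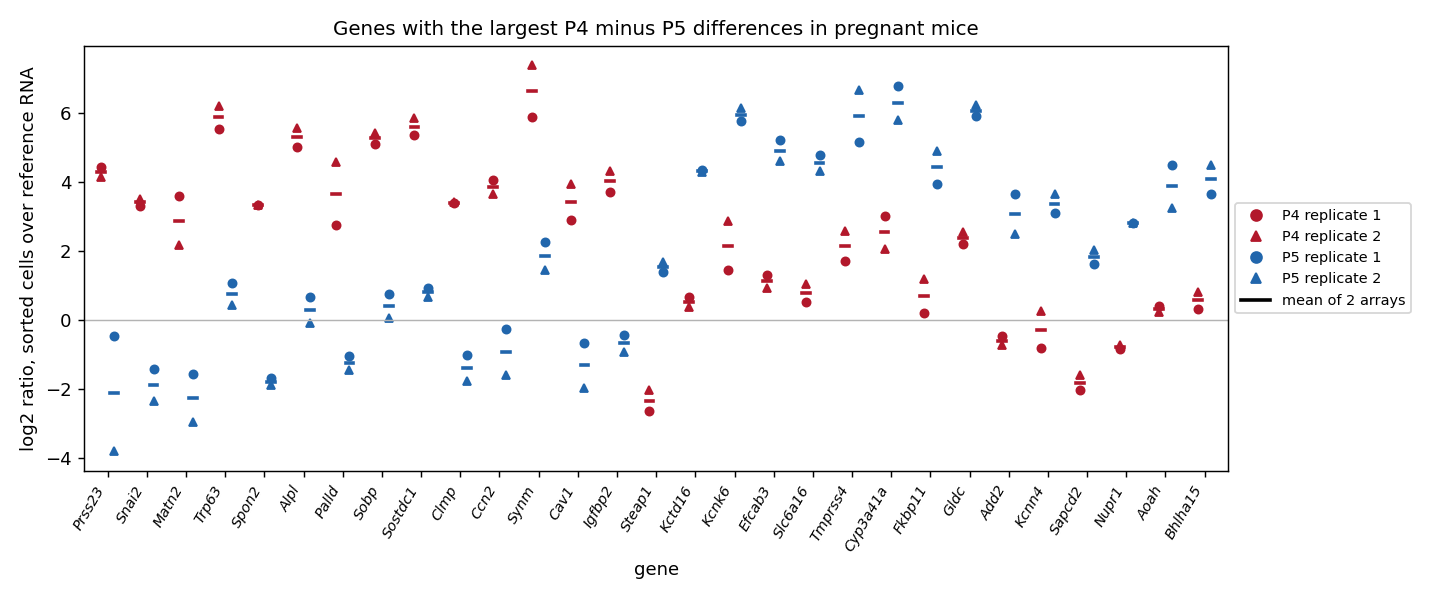
Log2 ratio over the reference RNA (axis) of 14 of the 15 genes with the largest positive and the 15 with the largest negative P4 minus P5 difference, on the 2 P4 arrays (red) and the 2 P5 arrays (blue) of pregnant mice, circles for replicate 1, triangles for replicate 2 and a bar at each mean. The P4 and P5 points do not overlap for any of the 29 genes shown, which were chosen for their size on these same arrays. Of all genes 57.7% do not overlap.

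Among transcription factors of basal and mesenchymal cells, 11 of 18 tested were higher in P4 and none lower, with a median difference of 1.22, against -0.05 over all genes. Beside Snai2 and Trp63, the HLH protein Id4 was at 4.30 and 4.14 in P4, against -0.03 and -0.38 in P5 (4.43, adjusted p = 0.000153). Egr2, a zinc finger factor of the early growth response family, was at 2.83 and 1.42 in P4, against -1.38 and -1.53 in P5 (3.58). Neither gene's arrays overlapped. Sox10, a neural crest and mammary factor, was at 3.38 and 3.85 in P4 and at 3.26 and 3.83 in P5, a difference of 0.07 (adjusted p = 0.738) within the spread between replicates. With the local backgrounds as the scanner gave them, 7 factors of this list were called rather than 11.

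Smooth muscle contractile genes had the highest median of all lists examined. Of 19 tested, 16 were higher in P4 and none lower, with a median difference of 3.70. Synm, an intermediate filament protein of muscle, was at 5.91 and 7.40 in P4, against 2.28 and 1.46 in P5 (4.78, SE 0.44, adjusted p = 0.000158). Cald1, which regulates actomyosin, was at 3.38 and 2.94 in P4, against -0.73 and -2.10 in P5 (4.57, SE 0.23, adjusted p = 1.90e-05). Neither of these was saturated, and in both the P4 arrays lay above the P5 arrays.

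Several members were saturated on replicate 1 of P4. Myl9, which encodes a regulatory light chain of myosin in smooth muscle, was at 3.42 and 6.396 in P4, against 0.69 and -0.05 in P5 (4.59, SE 0.72, adjusted p = 0.00191). Its difference was 2.73 in pair 1, with a saturated spot, and 6.45 in pair 2. Tagln, which binds actin, was at 3.34 and 6.44 in P4, against 0.60 and 0.69 in P5 (4.25), and its spot was saturated there too. Acta2, smooth muscle actin, was saturated on both P4 arrays, at 1.90 and 5.98, against 0.77 and 0.17 in P5, and was therefore at least 11.1-fold higher in P4 (adjusted p = 0.0196). Its 3 other probes gave 3.66, 3.85 and 5.71, and for the probe shown the call was lost without replicate 2 of P4 (1.53) or of P5 (1.91). Cnn1, calponin, was at 4.12 and 8.13 in P4, against 3.93 and 3.55 in P5, and did not pass (2.38, adjusted p = 0.0566), but was called without replicate 1 of P4 (4.24) or of P5 (3.83). Leaving out replicate 1 of both populations raised the list's median to 4.51, and leaving out replicate 2 of P4 lowered it to 3.09. Oxtr, the oxytocin receptor through which milk is let down, had no saturated spot and was at 4.06 and 5.24 in P4, against 0.93 and 0.97 in P5 (3.70, 13.0-fold), with a second probe at 2.57.

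The promoter of Myl9 is shown because it holds a CArG box, the element bound by serum response factor, whose gene Srf was itself higher in P4 (2.54 and 2.49, against -0.30 and -0.44 in P5, a difference of 2.88). The capitals mark the box, from -161 to -152 before the RefSeq transcription start, in 200 bases at chr2:156775264-156775463 of GRCm38.p6, plus strand.
Myl9: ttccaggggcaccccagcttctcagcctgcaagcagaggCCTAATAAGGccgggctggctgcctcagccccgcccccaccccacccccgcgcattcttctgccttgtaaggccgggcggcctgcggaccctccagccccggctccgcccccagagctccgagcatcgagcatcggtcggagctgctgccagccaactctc
Searched on both strands from 250 bases before to 50 bases after the start, a CArG box was present in 3 of the 16 smooth muscle genes with a promoter in the table (18.8%; Myl9, Cnn2 and Dmd) and in 488 of all 27025 genes (1.81%). It was also in 2 of 9 basal and mesenchymal transcription factors and 2 of 11 skeletal muscle genes. These are matches of letters, not measured binding.

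The basal keratins differed less than the contractile genes. Krt14 was at 2.72 and 4.51 in P4, against 2.56 and 2.33 in P5 (1.17, adjusted p = 0.0454). Krt5, its partner in the basal filament, was at 2.81 and 4.62 in P4, against 2.94 and 2.62 in P5, and did not pass (0.94, adjusted p = 0.113). The call of Krt14 was lost in 9 of 18 alternatives, among them without replicate 2 of P4 (0.38) or of P5 (0.45). Krt5 was called without replicate 1 of P4 (1.80) or of P5 (1.67). For both genes the spot on replicate 1 of P4 was saturated, and in pair 2 the differences were 2.17 (Krt14) and 2.00 (Krt5). Luminal keratins were divided. Krt8 was at 1.87 and 2.85 in P4, against 0.40 and 1.55 in P5 (1.39, adjusted p = 0.00614), with a saturated spot on 1 P4 array and the call lost without replicate 1 of P5 (1.23). Krt7 was at 1.93 and 2.85 in P4, against -0.38 and 0.88 in P5 (2.14), and both Krt8 and Krt7 were higher in P4 in each pair. Krt18, with 1 P5 value missing because that spot was an outlier on its array, was lower in P4 (-0.94), a call lost without replicate 1 of P4 (-0.88).

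Genes of the basement membrane and its receptors were higher in P4 in 24 of 28 tested, and none was lower (median 2.35). Among collagen IV chains, Col4a6 was at 3.86 and 4.13 in P4, against -0.30 and -0.18 in P5 (4.24, adjusted p = 1.99e-05), though of 2 other probes one gave 2.26 and one -0.06. Col4a5 was at 3.42 and 1.87 in P4, against -0.62 and -1.27 in P5 (3.59). Col4a1, a chain of every basement membrane, differed by 3.30. Col17a1, the transmembrane collagen of hemidesmosomes, was at 5.68 and 6.99 in P4, against 2.26 and 2.08 in P5 (4.16, 17.9-fold). In these genes no P5 array reached a P4 array. Lama3 (2.70, with a second probe at -0.13) and Lamb3 (2.51), which encode chains of laminin-332, the ligand that anchors hemidesmosomes, were higher too. Integrin chains ranged more widely, with Itga1 at 3.05, Itga9 at 3.04 and Itgb4 at 1.02, of whose 2 other probes one gave 1.06 and one a called difference of -1.33.

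Desmosome and cadherin genes were higher in P4 in 10 of 16 tested and lower in 3 (median 0.97), and with median centring 11 were higher and 1 lower. Dsp, desmoplakin, was at 4.26 and 4.63 in P4, against 0.28 and -0.09 in P5 (4.35, adjusted p = 1.58e-05), and its 3 other probes were higher as well, by 0.67 to 3.06. Plakophilins divided between the populations. Pkp1 was at 3.22 and 3.58 in P4, against -0.57 and -1.02 in P5 (4.20), whereas Pkp2 was at -2.91 and -2.20 in P4, against 0.27 and 0.08 in P5 (-2.73). Perp, a p63-regulated desmosome protein, was higher in P4 by 3.61 and saturated on 1 P4 array.

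The ligands of the Notch pathway were on the P4 side. In this list 13 of 23 genes were higher and 1 was lower, with a median of 0.99. Dll1 was at 5.19 and 5.36 in P4, against 1.59 and 0.68 in P5 (4.14, adjusted p = 2.54e-05). Jag1 was at 3.80 and 3.18 in P4, against -0.23 and -1.49 in P5 (4.35, adjusted p = 3.22e-05), with a second probe at 0.25. Jag2 was at 3.23 and 3.47 in P4, against -0.50 and -0.75 in P5 (3.98). For all 3 ligands the P4 arrays lay above the P5 arrays by more than 3 log2 units. Of the targets, Hey1 was higher in P4 (0.82 and 1.47, against -1.01 and -1.31 in P5, 2.30).

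In the Wnt pathway 20 of 40 genes were higher and 4 lower in P4 (median 0.53). The 4 largest differences among its called genes were those of 3 antagonists, Sostdc1 above, Nkd1, which binds Dishevelled (4.03), and Dkk3 (3.03), and of 1 receptor, Fzd7. Nkd1 was at 2.996 and 3.38 in P4, against -0.73 and -0.95 in P5. Fzd7 was at 3.18 and 2.14 in P4, against -0.69 and -1.76 in P5 (3.88, adjusted p = 8.82e-06), and a second probe gave 0.77. Both genes were without overlap between the populations. The list's count was 15 rather than 24 with local backgrounds as given.

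Of 32 genes of the TGF-beta, activin and BMP pathway, 17 were higher and 1 was lower in P4 (median 0.58). After Id4, a target of BMP signals, the largest were the ligand Bmp7, at 1.75 and 2.64 in P4 against -1.05 and -0.66 in P5 (3.05), and the activin trap Fst, at 1.505 and 2.15 in P4 against -1.08 and -1.22 in P5 (2.98). Fstl1 (2.54), a secreted relative of follistatin, followed. Without the replicate block 11 of these genes were called.

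Among 13 genes of the insulin-like growth factor axis, 8 were higher and 2 lower in P4 (median 1.26), and 9 higher and none lower with median centring. Igfbp2 was at 3.72 and 4.34 in P4, against -0.44 and -0.91 in P5 (4.70, adjusted p = 8.89e-05). Igf1r, the receptor, was at 0.37 and -0.35 in P4, against -2.44 and -3.06 in P5 (2.76), and 3 other probes were 0.40 to 0.91 higher. For both genes the populations did not overlap. Igfbp3 was higher by 2.24, with another probe at -0.13. Without replicate 1 of P4 the list had 6 calls. Igfbp7 was higher by 1.94, a call lost without replicate 1 of P4 (1.82), replicate 2 of P4 (2.06) or replicate 2 of P5 (1.06).

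Of 30 proteases and their inhibitors, 11 were higher and 4 lower in P4 (median 0.54), so that 50% were called, against 41.2% of all genes. Htra1, a secreted serine protease, was at 0.69 and 1.72 in P4, against -2.96 and -2.91 in P5 (4.14). Timp3, a matrix-bound inhibitor of metalloproteinases, was at 1.56 and 1.31 in P4, against -1.79 and -2.55 in P5 (3.61). Mmp14, a membrane metalloproteinase, was at 0.79 and 0.40 in P4, against -2.67 and -3.04 in P5 (3.45, 10.9-fold). The 3 genes showed no overlap. The aggrecan-cleaving protease Adamts5 was the most negative of the list, at -0.35 and -0.37 in P4 against 3.40 and 2.52 in P5 (-3.32).

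On the P5 side, fatty acid and triglyceride synthesis had the lowest median of all lists examined. Of 26 genes tested, 23 were lower in P4 and 1 was higher, with a median difference of -2.01. Fads2, a desaturase of long-chain fatty acids, was at 0.63 and 1.21 in P4, against 3.92 and 4.45 in P5 (-3.27, SE 0.18, adjusted p = 2.34e-05, 9.62-fold lower). Acacb, the mitochondrial acetyl-CoA carboxylase, was at 2.82 and 1.43 in P4, against 5.195 and 5.0 in P5 (-2.97, SE 0.31, adjusted p = 0.000283), with a second probe at -0.76. In neither gene did the populations overlap.

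Slc25a1, which exports citrate from mitochondria, was at 1.59 and 0.96 in P4, against 3.91 and 4.37 in P5 (-2.86). Lpl, the lipase that frees fatty acids from circulating lipoproteins, was at 3.81 and 3.28 in P4, against 6.21 and 6.59 in P5 (-2.85), with a saturated spot on replicate 1 of P5. Acly, which turns citrate into acetyl-CoA, was also lower (-2.54), with a second probe at -0.65. Fasn, fatty acid synthase, was at 2.67 and 2.58 in P4, against 3.82 and 6.47 in P5. Its difference was -1.15 in pair 1, where both spots were saturated, and -3.89 in pair 2 (together -2.52, adjusted p = 0.0192). The call was lost without replicate 2 of P4 (-1.99), the difference was -4.04 without replicate 1 of P5 and -0.998 without replicate 2 of P5, and a second probe gave -2.48. Dgat2, which makes triglyceride, ran the other way, at 3.56 and 0.81 in P4 against 0.57 and -1.43 in P5 (2.62), with a wide gap between replicates and a call lost without replicate 1 of P4 (1.74) or replicate 2 of P5 (2.31). Dgat1 was lower in P4 (-1.54).

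Cholesterol synthesis was divided. Of 22 genes, 13 were lower and 5 higher in P4 (median -0.71). With median centring of the arrays 8 were lower and 5 higher (median -0.04). Tm7sf2, a sterol reductase, was at 0.28 and 0.03 in P4, against 3.20 and 3.12 in P5 (-3.01). Insig1, the sterol-sensing anchor of the SREBP complex, was at 1.46 and -0.25 in P4, against 4.21 and 2.85 in P5 (-2.93), and Mvd, mevalonate decarboxylase, was lower by -2.61. Against these, Srebf2, the transcription factor of the pathway, was at 1.07 and 0.63 in P4, against -1.57 and -1.64 in P5, and was 5.50-fold higher in P4 (2.46), though its 3 other probes gave 1.004, 0.37 and -0.60. Its relative Srebf1, the main factor of fatty acid synthesis, was lower in P4 (1.70 and 1.99, against 3.21 and 3.39 in P5, -1.45). The letters CCAAT or ATTGG, the CCAAT box, were found in the promoters of all 16 cholesterol genes in the table, against 41.1% of all genes (by window, 84.2% of 19 against 37.4%). The share was also high in other lists, at 88.9% of 9 basal and mesenchymal transcription factors, 87% of 23 genes of the endoplasmic reticulum and 85.7% of 21 cell cycle genes. The cholesterol windows were richer in G and C (median 62.3%, against 52.7%), and the core of the sterol element SRE-1, searched on both strands, was in none of the 16. That core was in 73 of all 27025 genes (0.27%), too few for its absence from 16 genes to be a result about them.

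Genes of the milk fat globule were lower in P4 in 8 of 16 tested and higher in 1 (median -1.15), and with median centring 6 were lower and 2 higher. Xdh, xanthine dehydrogenase, which lies under the globule membrane, was at 0.23 and -0.35 in P4, against 3.87 and 2.30 in P5 (-3.15). Btn1a1, butyrophilin, its membrane partner, was at 0.13 and 1.36 in P4, against 2.95 and 3.74 in P5 (-2.60, adjusted p = 1.93e-05). The populations did not overlap in either. Folr1, a folate receptor, was lower by -2.38, with a second probe at -0.50, and Muc1, the apical mucin, by -2.24.

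For lactose and its precursors, 8 of 14 genes were lower and 2 higher in P4 (median -0.89), whereas with median centring 3 were lower and 4 higher. B4galt1, the galactosyltransferase of lactose synthase, was at 1.29 and 1.75 in P4, against 4.79 and 4.42 in P5 (-3.09, 8.50-fold lower), and of 2 other probes one gave -3.13 and one -0.28. Lalba, alpha-lactalbumin, the regulatory subunit of the same synthase, was at 1.94 and 4.13 in P4, against 4.39 and 5.42 in P5 (-1.87). Hk2, hexokinase 2, was lower by -1.48, a call lost without replicate 2 of P4 (-0.77), replicate 1 of P5 (-1.45) or replicate 2 of P5 (-1.52). In Lalba, replicate 2 of P4 was close to replicate 1 of P5, and its call was lost without the replicate block. Without replicate 1 of P5 the list had 5 calls in place of 10, and without replicate 2 of P4 it had 6.

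Ion, zinc, calcium and phosphate transport was lower in P4 in 14 of 20 genes and higher in 2 (median -1.38), and with median centring in 12 and 4. Slc34a2 (chromosome 5, 53049353 to 53071664), the sodium-phosphate cotransporter of secretory epithelia, was at 1.51 and 1.95 in P4, against 5.0 and 5.31 in P5 (-3.42, SE 0.11, adjusted p = 8.82e-06, 10.7-fold lower). Abcg2, which pumps riboflavin and xenobiotics into milk, was at 1.97 and 2.37 in P4, against 5.48 and 5.27 in P5 (-3.21), and a second probe gave -3.08. Slc30a2, a zinc exporter of milk, was at 1.25 and 1.65 in P4, against 4.13 and 5.08 in P5 (-3.15). Calcium pumps parted by type. Atp2b2, the apical plasma membrane pump of milk calcium, was at 1.57 and 3.003 in P4, against 4.59 and 5.87 in P5 (-2.94), and the Golgi pump Atp2c2 was lower by -2.07. Atp2a2, the pump of the muscle and endoplasmic reticulum, was at 2.98 and 3.61 in P4, against -0.32 and -0.35 in P5 (3.63), with 3 other probes at 0.11 to 1.80.

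Among 21 amino acid transporters, 7 were lower and 5 higher in P4 (median -0.33), but with median centring 5 were lower and 6 higher, and with the scanner's ratios 9 and 4. Slc7a4 was at 0.82 and 1.05 in P4, against 3.92 and 4.36 in P5 (-3.21), while the taurine transporter Slc6a6 was at 1.36 and 1.85 in P4, against -1.53 and -1.74 in P5 (3.25). Slc7a8, which carries large neutral amino acids, was lower (-2.20), as was Slc7a7 (-1.51), whose call was lost without the replicate block.

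In the endoplasmic reticulum, where secreted proteins fold, 15 of 26 genes were lower and 3 higher in P4, with a median of -0.58. With median centring 8 were lower and 4 higher, and the median turned to 0.09. Derl3, which helps to remove misfolded proteins, was at -2.21 and -1.27 in P4, against 1.04 and 1.78 in P5 (-3.15). Xbp1, the transcription factor of the unfolded protein response, was at 0.90 and 0.82 in P4, against 4.04 and 2.75 in P5 (-2.53, adjusted p = 0.00102). No P4 array reached a P5 array in either gene. Sec61b (-2.14), a subunit of the translocation channel, and the folding enzyme P4hb (-1.91) were also lower, and the call of P4hb was lost without the replicate block. Without that block 10 genes of the list were called in place of 18.

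Milk protein RNA stood above the reference mix in both populations for the caseins, whose spots were at the limit of the scanner. Of 18 genes, 9 were lower in P4, none was higher and 9 did not pass, with a median of -1.06. The share called was 50%, against 41.2% of all genes, of which 21.9% were lower in P4 and 19.3% higher. Csn2, beta-casein, was at 6.63 and 11.31 in P4, against 7.62 and 12.09 in P5, and did not pass (-0.88, adjusted p = 0.245). Csn1s1, alpha-casein, was at 5.73 and 8.74 in P4, against 6.62 and 10.10 in P5 (-1.12, adjusted p = 0.099), but was called without replicate 1 of P5 (-1.82). Wap, whey acidic protein, was at 3.91 and 7.12 in P4, against 4.21 and 8.26 in P5 (-0.72, adjusted p = 0.377), and without replicate 2 of P5 its sign turned (0.24). In these 3 genes the gap between replicates of a population was wider than the gap between P4 and P5 within a pair. Each was saturated on both P5 arrays and on replicate 1 of P4, so pair 1 sets no limit in either direction, and in pair 2, where the P5 spot was saturated, the differences of -0.78 (Csn2), -1.36 (Csn1s1) and -1.14 (Wap) are understated.

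Members below the limit of the scanner gave clearer values. Saa3, an acute phase protein made by the gland, was at -2.18 and 0.02 in P4, against 1.63 and 2.62 in P5 (-3.20, adjusted p = 8.41e-05). Lpo, lactoperoxidase, was at 1.20 and 1.55 in P4, against 3.15 and 3.76 in P5 (-2.08), and Muc15, a mucin of the milk fat globule, was at 4.04 and 5.53 in P4, against 6.42 and 7.13 in P5 (-1.99). None of the 3 overlapped between the populations. Spp1, osteopontin, was saturated on both P5 arrays and on replicate 1 of P4. It was at -0.67 and 1.61 in P4, against 1.66 and 4.19 in P5 (-2.46, adjusted p = 0.0231, and -2.58 in pair 2). Its call was lost in 6 of 18 alternatives, among them without replicate 1 of P4 (-1.78) or replicate 2 of P5 (-1.59). Summed over the 18 genes, Cy5 intensity was 441543 and 2804177 in P4, against 1022906 and 7058367 in P5. In both populations replicate 2 stood above replicate 1 by more than P5 stood above P4 in a pair. A spot was saturated in 12 of the 18 genes, and the replicate 1 arrays had no extended range. These sums are therefore capped by the scanner, and their gaps do not measure amounts of RNA. The number called was 3 without the replicate block and 3 with the local backgrounds as given, 12 without replicate 1 of both populations and 14 in a fit of the 4 arrays alone.

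**Figure D3:**
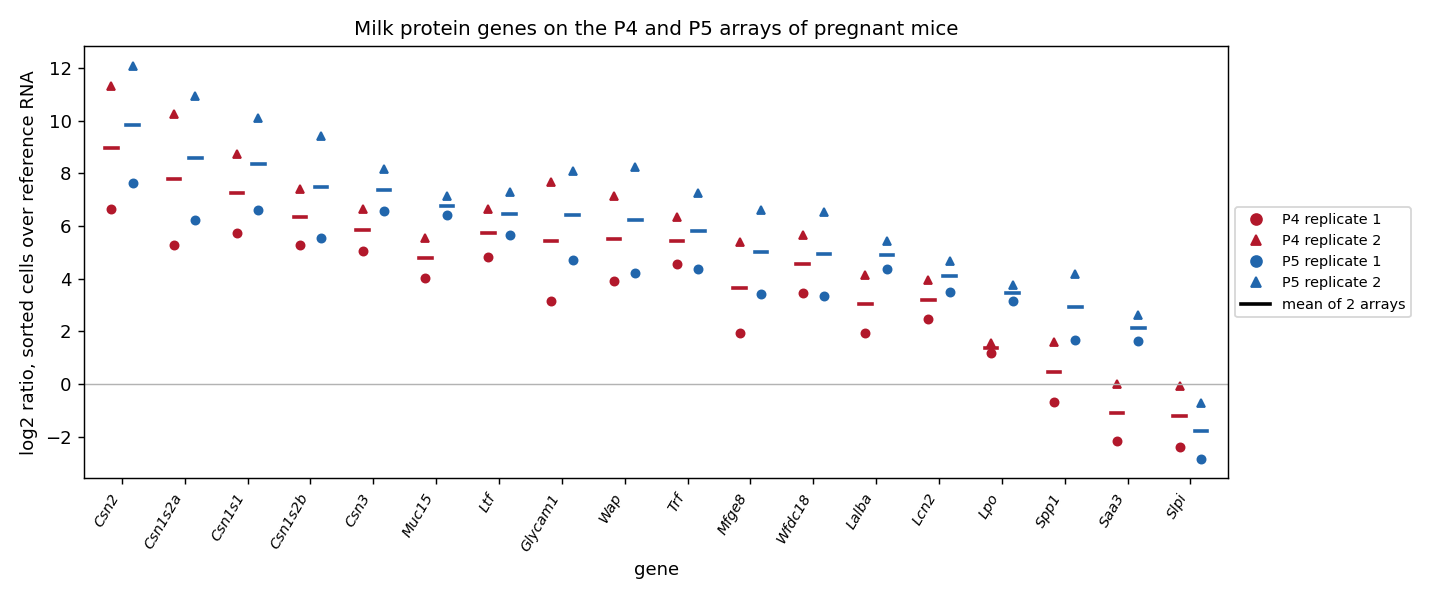
Log2 ratio over the reference RNA (axis) of 18 milk protein genes on the 2 P4 arrays (red) and the 2 P5 arrays (blue) of pregnant mice, circles for replicate 1 and triangles for replicate 2. Replicate 2 lies far above replicate 1 for the caseins in both populations, and within a replicate P4 is mostly the lower of the pair.

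The promoters of the 2 caseins are shown because each holds a GAS element, TTCNNNGAA, the sequence to which STAT5 binds, here in capitals. Both stretches end at the base before the RefSeq start in GRCm38.p6: Csn2 at chr5:87699426-87699625, minus strand, with the element from -93 to -85, and Csn1s1 at chr5:87666008-87666207, plus strand, with it from -100 to -92.
Csn2: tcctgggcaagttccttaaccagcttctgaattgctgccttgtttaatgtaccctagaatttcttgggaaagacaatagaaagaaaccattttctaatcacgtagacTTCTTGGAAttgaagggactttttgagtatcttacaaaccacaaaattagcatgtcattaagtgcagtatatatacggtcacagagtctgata
Csn1s1: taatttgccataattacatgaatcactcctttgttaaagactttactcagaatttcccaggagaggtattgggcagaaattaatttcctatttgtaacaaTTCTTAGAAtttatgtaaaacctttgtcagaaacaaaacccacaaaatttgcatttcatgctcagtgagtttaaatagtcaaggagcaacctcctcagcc
The element, which reads alike on both strands, was found between 250 bases before and 50 bases after the start in 4 of 14 milk protein genes with a promoter in the table (28.6%), against 2582 of 27025 genes (9.55%). It was also in 4 of 16 genes of prolactin, STAT5 and AKT signalling.

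The regulators of the alveolar programme differed one by one. Among 17 transcription factors and markers of luminal progenitors and alveolar cells, 7 were lower and 2 higher in P4 (median 0.07), but 3 were lower and 4 higher with median centring. The share called was 52.9%, against 41.2% of all genes. Elf5, the ETS factor of alveolar cells, was at 4.27 and 5.65 in P4, against 6.97 and 7.87 in P5 (-2.46, adjusted p = 8.64e-05), so that it stood well above the reference mix in both. Stat5a was at 0.78 and 0.89 in P4, against 2.93 and 2.59 in P5 (-1.93). Neither Elf5 nor Stat5a overlapped. Kit, a receptor of luminal progenitors, was at 0.81 and 1.94 in P4 and at 0.54 and 1.70 in P5 and did not pass (0.26, adjusted p = 0.424). In the wider list of prolactin, STAT5 and AKT signalling, 8 of 18 genes were lower and 4 higher in P4 (median -0.10), but with median centring 3 were lower and 8 higher (median 0.61). The prolactin receptor Prlr (-1.32) and Akt1 (-1.14) were lower. Nrg1, a ligand of the ERBB receptors, was at 3.55 and 2.37 in P4, against -0.56 and -1.43 in P5 (3.96), while the receptor Erbb3 was at -0.55 and 0.37 in P4, against 1.51 and 1.66 in P5 (-1.68), with 4 other probes between -0.22 and 0.07.

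**Figure D4:**
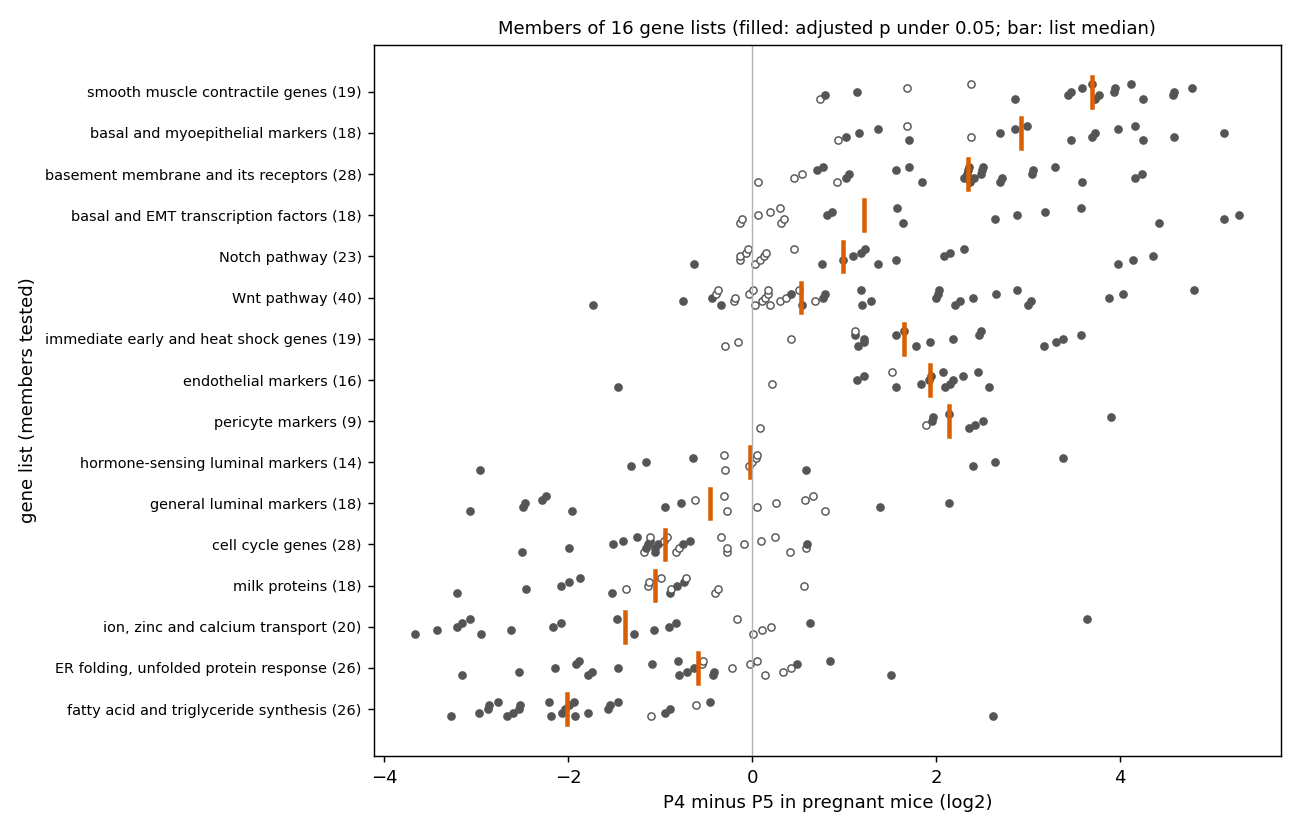
Log2 difference P4 minus P5 in pregnant mice (axis) for the members of 16 gene lists, filled where the adjusted p was under 0.05, with an orange bar at each list's median. Medians run from 3.70 for smooth muscle contractile genes to -2.01 for fatty acid and triglyceride synthesis.

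Tight junction and polarity genes were lower in P4 in 11 of 21 tested and higher in 4 (median -0.76). Cldn8 was at 2.71 and 4.77 in P4, against 6.36 and 7.83 in P5 (-3.36, adjusted p = 7.04e-05). Cldn7 was at 0.74 and 1.99 in P4, against 4.19 and 4.66 in P5 (-3.06), and the scaffold Tjp3 was at -0.38 and 1.01 in P4, against 2.55 and 3.35 in P5 (-2.64). Each of these was without overlap. The epithelial splicing factor Esrp2 was lower by -2.14, and Grhl2, a factor of epithelial junctions, was higher by 1.67, with 2 other probes at 0.31 and -0.06 that did not pass. Of the general luminal markers, the adhesion molecule Epcam was at 0.08 and 0.32 in P4, against 2.83 and 2.15 in P5 (-2.28), and Cdh1, E-cadherin, did not pass (0.57, adjusted p = 0.122). With local backgrounds as given, 8 junction genes were called in place of 15, and without the replicate block 6 luminal markers in place of 10.

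The promoters of Cldn7 and Epcam are shown because both hold the E-box that proteins of the Snail family, Snai2 among them, bind. Capitals mark CAGGTG or its reverse complement CACCTG, which begin at -97 and -57 in Cldn7 (chr11:69965221-69965420, plus strand) and at -187 and -19 in Epcam (chr17:87635779-87635978, plus strand, both GRCm38.p6).
Cldn7: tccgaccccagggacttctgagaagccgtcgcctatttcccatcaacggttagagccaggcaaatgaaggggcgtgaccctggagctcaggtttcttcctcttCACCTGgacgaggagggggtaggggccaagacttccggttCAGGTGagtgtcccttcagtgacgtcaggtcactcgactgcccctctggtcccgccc
Epcam: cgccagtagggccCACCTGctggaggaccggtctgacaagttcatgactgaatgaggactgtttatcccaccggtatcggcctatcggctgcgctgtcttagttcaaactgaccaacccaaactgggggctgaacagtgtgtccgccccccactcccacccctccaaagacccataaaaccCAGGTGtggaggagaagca
Either form occurred in 12 of the 14 general luminal markers with a promoter in the table (85.7%) and in 11 of 14 tight junction and polarity genes (78.6%), against 6098 of 27025 genes (22.6%). Of 13 hormone-sensing luminal markers 10 held it as well (76.9%). Counted by window, since some genes have several starts, the shares were 72.2% of 18 and 68.2% of 22 windows, against 20.2% of 32851. The lists share 3 claudins, and their windows were richer in G and C (medians 60% and 60.8%, against 52.7%). The genes with the motif did not all run one way, since Krt7 and Krt8 have it and were higher in P4.

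Cell cycle genes were lower in P4 in 13 of 28 tested and higher in 1 (median -0.94), but with median centring 3 were lower and 5 higher (median -0.23). In the main fit 50% of them were called, against 41.2% of all genes. Mki67, a marker of cycling cells, was at -3.003 and -2.49 in P4, against -0.12 and -0.37 in P5 (-2.50, SE 0.41, adjusted p = 0.00241, 5.65-fold lower), with both P4 arrays below both P5 arrays. A second Mki67 probe gave -2.58. The cyclin Ccnb1 (-1.99; other probes at -0.79 and -1.001, not called), the anaphase activator Cdc20 (-1.51) and the spindle protein Birc5 (-1.40) were lower, and their calls were lost without replicate 2 of P4 (-1.80 for Ccnb1, -1.41 for Cdc20, -1.31 for Birc5) or replicate 1 of P5 (-1.57 for Ccnb1, -1.16 for Cdc20, -0.95 for Birc5). Without replicate 1 of P4 the calls of Cdc20 (-1.61) and Birc5 (-1.48) were lost too. These calls depended on the fit: 1 gene was called without the replicate block, 4 with slide as a block (2 lower and 2 higher) or without either P4 array, and 2 without replicate 1 of P5.

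Immediate early and heat shock genes, which are known to respond to tissue dissociation, were higher in P4 in 15 of 19 tested and lower in none (median 1.65). Nr4a1, an orphan nuclear receptor, was at 3.52 and 2.83 in P4, against 0.08 and -0.49 in P5 (3.38). Egr1 was at 3.06 and 3.44 in P4, against -0.32 and 0.47 in P5 (3.18), and the spots of both genes were saturated on replicate 1 of P4. Their populations did not overlap. The small heat shock protein Hspb1 was higher by 3.30, with another probe at -0.15. Without replicate 1 of P5 the list had 9 calls.

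Markers of other cell types that a sort of the gland could hold were examined as lists. Endothelial markers were higher in P4 in 13 of 16 and lower in 1 (median 1.94), with summed Cy5 intensities of 26600 and 46839 in P4, against 11631 and 6218 in P5. Emcn, endomucin, was at 4.12 and 5.45 in P4, against 2.14 and 2.51 in P5 (2.46), and Cldn5, the claudin of vessels, at 3.31 and 5.02 in P4, against 2.08 and 1.88 in P5 (2.18). Without replicate 2 of P5 these differences were 1.64 for Emcn and 1.30 for Cldn5. Cdh5, the cadherin of vessels, was higher by 2.57, a call lost without replicate 1 of P4 (2.76), replicate 2 of P4 (2.39) or replicate 2 of P5 (1.26). Kdr, the VEGF receptor, was higher by 2.29, and its call was lost without replicate 2 of P4 (1.64). Pericyte markers were higher in 7 of 9 and none was lower (median 2.15), with sums of 20740 and 20820 in P4, against 4563 and 3499 in P5. Mcam, which basal epithelial cells also make, was at 3.96 and 4.34 in P4, against 0.58 and -0.07 in P5 (3.90). The proteoglycan Cspg4 (2.51, with other probes at 1.26 and -0.63), the channel subunit Kcnj8 (2.43) and the receptor Pdgfrb (2.35) were higher as well. Neither sum overlapped, and 8 endothelial genes were called without replicate 2 of P4.

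Fibroblast markers were higher in P4 in 9 of 19 and lower in none (median 0.40; sums 44670 and 52497 in P4, against 26154 and 19706 in P5). Fbn1, fibrillin, was at 2.01 and 2.09 in P4, against -1.58 and -2.06 in P5 (3.88), with a second probe at 2.98, and 10 members of the list did not pass. Col5a2, a fibrillar collagen, was higher by 1.80. Dcn, decorin, was higher by 3.03, with a second probe at 0.09 and a call lost without replicate 1 of P4 (2.52) or replicate 2 of P5 (2.15). Without replicate 2 of P5 the list had 5 calls. Among 12 adipocyte markers 3 were higher and 1 was lower (4 and none with median centring; median 0.75; sums 127616 and 291737 in P4, against 106211 and 54862 in P5). Plin4, a lipid droplet protein, was at 4.03 and 4.02 in P4, against -0.08 and -0.75 in P5 (4.44), and Lep, leptin, was at 3.92 and 4.78 in P4, against 0.61 and 0.40 in P5 (3.84). Pparg, the nuclear receptor of fat cells, was higher by 1.72. The fatty acid carrier Cd36 was lower (-0.94), a call lost without replicate 1 of P4 (-0.84), replicate 2 of P4 (-1.05) or replicate 1 of P5 (-0.40). Among 23 leukocyte markers 3 calls were positive and 3 negative (median 0.08; sums 10490 and 18529 in P4, against 10408 and 10196 in P5). With median centring 10 were higher and none lower, and without the replicate block none was higher and 1 lower. The share called was 26.1% of leukocyte, 33.3% of adipocyte and 47.4% of fibroblast markers, against 41.2% of all genes tested. The T cell gene Cd3e was lower (-0.88), with a second probe at -0.02. Lyz2 (1.40), lysozyme of macrophages, H2-Aa (0.94) and H2-Ab1 (0.82), both of MHC class II, were higher, and all 3 calls were lost without replicate 2 of P4 (0.95 for Lyz2, 0.28 for H2-Aa, 0.41 for H2-Ab1) or replicate 2 of P5 (0.76 for Lyz2, 0.58 for H2-Aa, 0.30 for H2-Ab1). None of the 5 red blood cell markers tested was called, with differences of 0.38 for Hbb-bt (though 3 other probes were called, at 1.17 to 1.42), -0.26 for Alas2, -0.43 for Hba-a1 (0.28 with median centring, and 0.39 for a second probe) and -0.52 for Slc4a1, which was called without replicate 2 of P5 (-0.76). Their summed intensities were 1468 and 1386 in P4, against 1882 and 1636 in P5. Of 10 Schwann cell and nerve markers 2 were higher and 5 lower (3 and 1 with median centring; sums 26609 and 17850 in P4, against 12613 and 10150 in P5). The myelin genes were divided, with Pmp22 (2.81) higher and Mbp (-1.72, other probes at 1.04 and -0.12) and Mag (-0.79) lower, while the adhesion molecule Ncam1 was higher by 1.07, with 5 other probes from -1.25 to 1.30. The part of these cell types in the differences between P4 and P5 was not tested.

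Genes associated with mammary stem cells were higher in P4 in 9 of 14 tested and lower in 1 (median 0.79). Snai2, Dll1 and Itgb1, described above, are members. Lgr5, a Wnt-associated receptor, at 0.41 and 0.73 in P4 against 0.09 and -0.06 in P5, was higher in P4 by 0.55 (adjusted p = 0.0281), with neither P5 array well above background. The call was lost in 7 of 17 alternatives, among them without replicate 2 of P4 (0.31), replicate 1 of P5 (0.66) or replicate 2 of P5 (0.43). Without replicate 2 of P5 the list had 5 calls, and 6 without either P4 array or without the replicate block.

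Whether the P4 minus P5 difference itself differed between pregnant and virgin mice was tested as an interaction in the same fit. It was called in 6242 of 23644 genes (26.4%), with a difference that was more positive in pregnant mice in 2920 (12.3%) and more negative in 3322 (14.1%). A more positive value can be a smaller gap, as for Krt18 (-0.94 in pregnant and -3.61 in virgin mice). Replicate 1 of virgin and of pregnant mice lay in different scans and replicate 2 of both in the same scan. The split depended on the scaling. With median centring 6550 genes were called, 5759 more positive and 791 more negative in pregnant mice. Of the 6550, 3454 were shared with the loess fit, and the median interaction of all genes was 0.22 in place of -0.09. Counts of interactions below are therefore given under both scalings where the balance moved. Without the replicate block 1902 genes were called, 980 more positive and 922 more negative in pregnant mice. Lists are described in 3 groups by their medians in the 2 stages, to which not all lists belong. Their counts of called interactions stand against the 26.4% of all genes, 12.3% more positive and 14.1% more negative.

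In the first, P4 and P5 were apart in both stages. Smooth muscle genes had a median difference of 3.70 in pregnant mice and 3.61 in virgin mice. An interaction was called in 4 of 19, against 26.4% of all genes. On the replicate 2 arrays alone, which share a scan, the medians were 4.51 and 3.55. For the basal markers the medians were 2.92 and 3.71, with 5 of 18 called, near the share of all genes, and 4.24 and 3.96 on the replicate 2 arrays alone. Without the replicate block no interaction was called in either list. Snai2 differed by 5.29 in pregnant and 4.84 in virgin mice, Trp63 by 5.13 and 5.87, and neither interaction passed (adjusted p = 0.493 for Snai2 and 0.355 for Trp63). Endothelial markers, at 1.94 and 1.97, behaved likewise.

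In the second, a difference was present in pregnant mice and near zero in virgin mice. The fatty acid list had medians of -2.01 in pregnant mice and -0.18 in virgin mice, and 20 of its 26 genes were more negative in pregnant mice while 1, Dgat2, was more positive. With median centring 7 were more negative and 2 more positive, and on the replicate 2 arrays alone the medians were -2.08 and -0.25. Acaca went with them, with a difference of -2.60 in pregnant and 0.25 in virgin mice. Ion transport (-1.38 and -0.25, 11 of 20 more negative and 5 more positive) and the endoplasmic reticulum (-0.58 and -0.07, 10 of 26 more negative and 2 more positive) shared the direction. Median centring gave 6 more negative and 4 more positive for ion transport, and for the endoplasmic reticulum it turned the balance, with 1 more negative and 5 more positive. Immediate early genes were on the other side, at 1.65 in pregnant mice and 0.03 in virgin mice, with 9 of 19 more positive and 1 more negative (medians 0.98 and 0.01 on the replicate 2 arrays alone), and so were Notch genes (0.99 and 0.11, 7 of 23 more positive and none more negative) and desmosome and cadherin genes (0.97 and 0.15, 8 of 16 and 1). Without the replicate block 1 immediate early gene, 2 Notch genes and 2 desmosome and cadherin genes were more positive, and none was more negative. More negative without it were 12 fatty acid genes, 7 of ion transport and 4 of the endoplasmic reticulum (none, 3 and 1 more positive). Cholesterol synthesis and milk proteins were below zero in both stages. For cholesterol synthesis the medians were -0.71 and -0.45, with 10 of 22 more negative and 3 more positive, a balance that median centring reversed (3 and 10). Without the replicate block none of the 22 was more negative and 1 was more positive. For milk proteins the medians were -1.06 and -0.65, with 5 of 18 more negative and none more positive (2 and 2 with median centring). Over all genes 26.4% had a called interaction, 14.1% being more negative and 12.3% more positive. Stem-cell-associated genes were above zero in both stages, at 0.79 in pregnant and 2.45 in virgin mice, with 4 of 14 more negative and 3 more positive (3 and 4 with median centring).

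In the third, a median below zero in virgin mice was nearer to zero in pregnant mice. Hormone-sensing luminal markers had a median of -0.02 in pregnant mice and -2.52 in virgin mice, and 11 of 14 had a called interaction, each in the positive direction (12 with median centring). On the replicate 2 arrays alone the medians were -0.11 and -2.56. Esr1, the estrogen receptor, differed by -1.15 in pregnant and -2.78 in virgin mice, and Pgr, the progesterone receptor, by 0.59 and -2.33. In pregnant mice the call of Esr1 was lost on leaving out any one of the 4 arrays (-1.43 to -0.87), and that of Pgr without replicate 1 of P4 (0.49) or replicate 2 of P5 (0.52). Pgr was not well above background on either P5 array, and was at least 1.43-fold higher in P4, with a second probe at 0.05. For Ptn, a heparin-binding growth factor, and the ligand Wnt4 the sign was opposite in the 2 stages: 3.38 in pregnant and -2.10 in virgin mice for Ptn, 2.40 and -2.78 for Wnt4. Tbx3, a T-box factor, did the same (2.64 and -1.61), with a second probe at 0.17 in pregnant mice. In pregnant mice Ptn was at 1.80 and 2.18 in P4, against -1.69 and -1.10 in P5, with no overlap. Stc2, a secreted glycoprotein, was lower in P4 in pregnant mice (-0.85 and -0.86, against 2.07 and 2.12 in P5, -2.95), and its virgin difference was -3.47. The general luminal markers moved alike (-0.46 and -2.24, 10 of 18 more positive and 1 more negative), as did tight junction and polarity genes (-0.76 and -1.45, 8 of 21 more positive and none more negative). Much of this rested on genes not well above background on every array. On all 12 arrays 14 general luminal markers were, with a median interaction of 0.27, against 1.78 for the 18. For tight junction genes it was 0.27 in 16, against 0.63 in 21. For hormone-sensing markers it was 1.57 in 9, against 2.25 in 14. Without the replicate block 9 general luminal, 4 tight junction and 7 hormone-sensing genes were more positive, and 1 general luminal gene more negative.

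A list of skeletal muscle genes showed the same pattern. In pregnant mice 6 of the 14 tested were higher and 4 lower in P4. All 14 had a called interaction in the positive direction, also with median centring (9 without the replicate block), with a median difference of -0.34 in pregnant mice and -2.67 in virgin mice. Tnni2, troponin I of fast fibres, was at 3.79 and 4.31 in P4, against 1.01 and 0.27 in P5 in pregnant mice (3.41), and its difference in virgin mice was -3.23. Tnnt3, fast troponin T, differed by -1.93 in pregnant and -2.72 in virgin mice, with a second probe at -0.39 in pregnant mice. Myh2, a fast myosin heavy chain, differed by 3.15 in pregnant and 0.05 in virgin mice, and the perinatal chain Myh8 by 1.62 (not called, but called without replicate 1 of P4, 2.81, or of P5, 2.98; a second probe gave -0.14) and -3.73. The summed Cy5 intensity of the list was 63723 and 54670 in P4, against 8431 and 3013 in P5 of pregnant mice, and Acta1, skeletal actin, whose spot was saturated on 1 P4 array (4.16 and 5.09 in P4, against 1.38 and -0.03 in P5), was among its members. The part of muscle RNA in these populations was not tested.

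**Figure D5:**
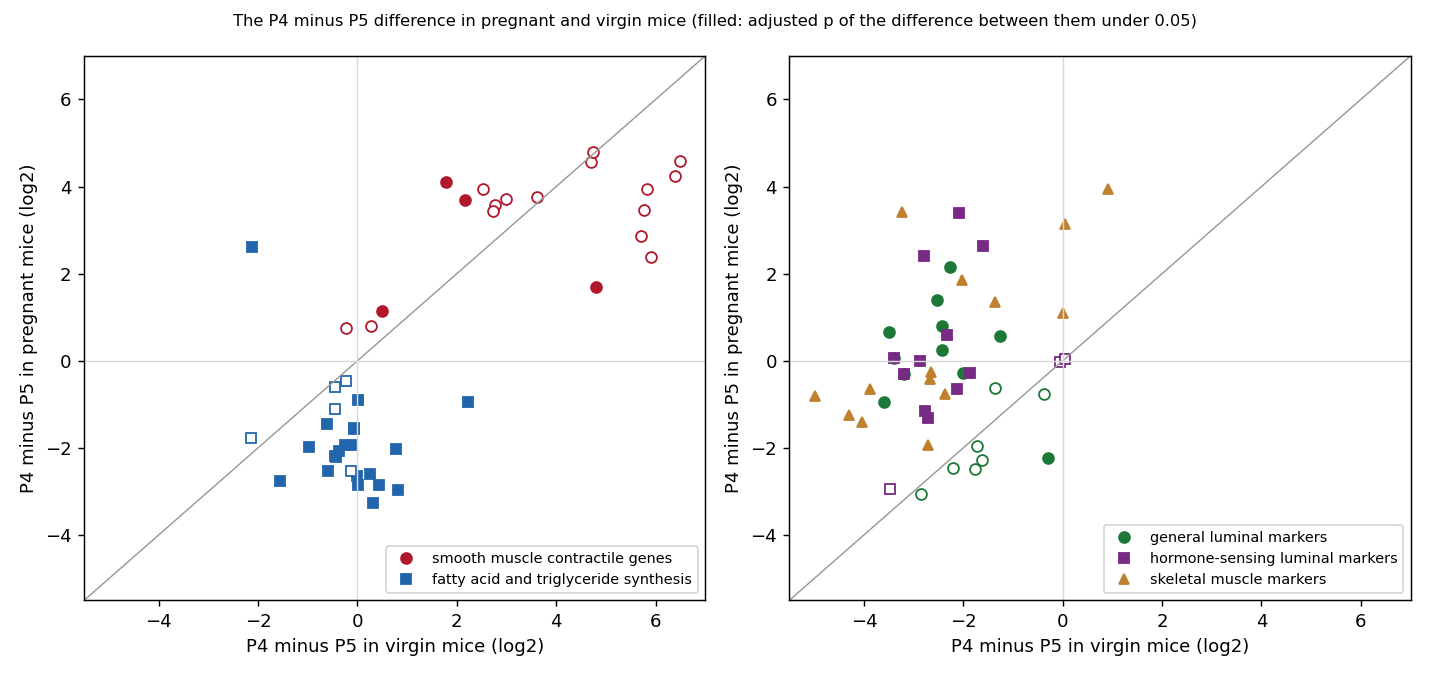
Log2 difference P4 minus P5 in virgin mice (horizontal axis) and in pregnant mice (vertical axis), for smooth muscle and fatty acid genes in one panel and for general luminal, hormone-sensing luminal and skeletal muscle genes in the other, filled where the interaction had an adjusted p under 0.05. Fatty acid genes lie below the diagonal near zero on the virgin axis (medians -2.01 pregnant, -0.18 virgin), and hormone-sensing and skeletal muscle genes lie above it.

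Single genes showed the largest interactions. St6gal1, a sialyltransferase of secreted glycoproteins, was at 0.67 and 0.94 in P4, against 4.45 and 4.00 in P5 of pregnant mice, a difference of -3.42, against 2.48 in virgin mice. Tent5c, a poly(A) polymerase of secretory cells, was at -1.30 and -1.61 in P4, against 2.33 and 1.49 in P5 (-3.36 in pregnant, 1.77 in virgin mice). Odc1, the first enzyme of polyamine synthesis, differed by -2.61 in pregnant and 2.05 in virgin mice, the peptide hormone gene Sct by -1.85 and 3.13, and the channel protein Panx1 by -1.05 (a second probe gave -0.20) and 3.76. In the other direction, Tgm2, tissue transglutaminase, was at 3.15 and 3.54 in P4, against -0.59 and -0.03 in P5 (3.66 in pregnant, -1.94 in virgin mice). Phyh, a peroxisomal enzyme, differed by 2.13 and -3.15, and Samd5 by 2.00 and -3.21. These genes were named for the size of the interaction, so their values are a description of its range.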

How the data were processed

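Sorted mammary cells were measured on 2-colour Agilent arrays, Cy5 for the cells and Cy3 for the reference RNA, and scanned with Feature Extraction 9.5.3.1, as both the file headers and the submitters' notes on processing state. The deposited scanner files give mean and background intensity per spot and a log10 ratio (Cy5 over Cy3). The log2 values of the authors' series table, which followed the scanner's ratios (correlation 0.990 to 1.00 over spots), were an alternative, as were the log10 ratios the authors deposited. Median Cy5 intensity of the 4 arrays was 104.3 to 195.9 and 77.6% to 86.7% of spots were well above background; their number limits the precision.

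From the intensities, limma 3.58.1 in R 4.3.3 corrected the background (normexp, offset 50, local backgrounds that the scanner called outliers replaced by the array's median) and normalized within arrays (loess), and a probe was kept when well above background in Cy5 on both arrays of at least 1 of 6 groups. Outlier spots were left out, and the brightest probe stood for a gene. The fit held 6 group means over 12 arrays, with the replicate number as a block within each stage and 4 residual degrees of freedom. The comparison is defined as paired: same-numbered pregnant arrays deviated together (r = 0.63 to 0.687), and the labels do not say what a number stands for. Nothing says that replicates came from separate animals, so p-values cover the spread among these samples alone, and that spread may be technical. On simulated data with the 23523 genes of this comparison, 91% of changes of 2 on the log2 scale and 60% of changes of 1 were called. Few genes were changed there, with noise drawn independently for each array and no scanner limit. In the data 41.2% of genes were called and some spots were saturated, so these shares do not give the power of the comparison. Promoters and positions are from RefSeq tables (GRCm38.p6), and 18035 of the genes tested had a RefSeq symbol.

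Genes named are the 15 called genes at each end, the given markers and sorting genes, the 4 members of each list with the largest difference among those called, and the 6 largest interactions in each direction, except that a few of these are not reported here. The members and lists were chosen with earlier results of these data known. Chosen after their values were seen were Acly, Acta2, Adamts5, Akt1, Atp2b2, Atp2c2, Cdh1, Cnn1, Cnn2, Csn1s1, Csn2, Dgat1, Dgat2, Dmd, Esr1, Fasn, Grhl2, Itga1, Itga9, Itgb4, Kit, Krt5, Krt7, Krt8, Krt14, Krt18, Lama3, Lamb3, Lgr5, Oxtr, Pgr, Prlr, Slc30a2, Sox10, Srebf1, Srf and Wap. Alternatives changed the block, background, normalization, filter, saturated spots, probe choice and arrays. The other populations of the series were used only in the shared fit or not analysed here.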

Additional observations from a re-analysis of the deposited data

Results flagged for a closer look

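Of the 188 genes named above, 108 were picked out because the P4 minus P5 difference itself differed between pregnant and virgin mice, by the interaction test of limma (adjusted p under 0.05). The value given for each is the difference in pregnant mice minus that in virgin mice, on the log2 scale. Across all genes tested this was called in 26.4%, and the genes were named for other reasons, for the size of their interaction among them, so that a higher share here is not a result.

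More negative in pregnant mice were the lipid genes Acaca (-2.85), Acacb (-3.78), Acly (-1.95), Fads2 (-3.57), Slc25a1 (-2.87), Lpl (-3.28), Dgat1 (-1.48), Srebf1 (-0.83), Insig1 (-3.11), Mvd (-2.17), Tm7sf2 (-1.74) and Cd36 (-3.16). So were the milk, fat globule and lactose genes Saa3 (-3.07), Lpo (-2.56), Xdh (-2.48), Btn1a1 (-1.70), Muc1 (-1.93), B4galt1 (-1.73) and Hk2 (-2.15). The transport genes Abcg2 (-4.33), Slc34a2 (-3.32), Slc30a2 (-3.01), Atp2b2 (-3.01), Atp2c2 (-1.73), Kcnn4 (-1.65), Kcnk6 (-4.46), Slc6a16 (-4.02), Slc7a4 (-1.40), Slc7a7 (-1.36) and Slc7a8 (-2.56) and the genes of protein folding and secretion Derl3 (-2.61), Fkbp11 (-3.40), Sec61b (-1.66), P4hb (-1.65), Bhlha15 (-1.41), St6gal1 (-5.90) and Tent5c (-5.14) had the same direction. Of signalling and growth genes, Stat5a (-0.93), Akt1 (-1.43), Mki67 (-2.33), Odc1 (-4.65), Nupr1 (-1.16), Sct (-4.98) and Panx1 (-4.82) did too.

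Among the genes lowest in P4 the interaction was negative for Steap1 (-2.46), Kctd16 (-3.77), Efcab3 (-3.88), Cyp3a41a (-3.78), Gldc (-3.58), Add2 (-3.73), Sapcd2 (-3.18), Aoah (-3.86) and Adamts5 (-4.45).

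The basal and matrix side was mixed. Values below zero, for differences that were smaller in pregnant mice, were found for Krt5 (-2.12), Krt14 (-1.92), Col17a1 (-1.498), Col4a1 (-1.34), Bmp7 (-1.65), Fstl1 (-1.01), Dkk3 (-1.33), Igfbp3 (-2.47), Lgr5 (-3.30) and Pmp22 (-0.93). The Krt5 and Krt14 spots were saturated on replicate 1 of P4 in pregnant mice, which understates their difference there, whereas the virgin P4 arrays had 0 saturated Cy5 spots. For the 18 basal markers the median interaction was -1.435. It was -0.714 with saturated spots set to missing and -0.597 without replicate 1 of P4 in pregnant mice. Values above zero were found for Matn2 (1.15), Alpl (2.29), Cav1 (2.83), Oxtr (1.54), Srf (1.26), Col4a5 (1.58), Col4a6 (1.53), Itgb1 (1.23), Dsp (3.32), Pkp1 (2.21), Jag1 (3.36), Fzd7 (1.51), Mmp14 (3.64), Nrg1 (2.02), Srebf2 (2.02) and Atp2a2 (1.60), and for the immediate early and heat shock genes Egr1 (3.15), Nr4a1 (2.26) and Hspb1 (2.09).

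Most luminal and hormone-sensing genes with a called interaction lay above zero, with Krt7 (4.42), Krt8 (3.92), Krt18 (2.67), Kit (2.69), Cdh1 (1.84), Ptn (5.48), Wnt4 (5.19), Tbx3 (4.25), Esr1 (1.63), Pgr (2.92) and Prlr (1.39). The general luminal marker Muc1 (-1.93) lay below zero, and Cd24a, Epcam, Cldn7, Elf5 and Stc2 had no called interaction. Grhl2 (2.04), Hey1 (4.24) and Erbb3 (1.29), described above with other lists, lay above zero. The same held for the muscle genes Tnni2 (6.63), Tnnt3 (0.79), Acta1 (3.03), Myh2 (3.103) and Myh8 (5.36) and for Tgm2 (5.59), Phyh (5.29), Samd5 (5.202), Dgat2 (4.73) and Lep (3.54). The immune gene Cd3e (-1.38) and the myelin gene Mag (-1.16) lay below zero.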

How the results depend on the processing

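The main fit, with the replicate block, called 9751 genes between P4 and P5 of pregnant mice and 6242 interactions with stage. Without the replicate block it called 5347 and 1902, and with the local backgrounds as the scanner gave them 5599 and 2407. Leaving out 1 of the 4 arrays in turn gave 6854 to 7259 genes and 4191 to 4656 interactions. Median centring in place of loess called 7970 genes, 75.7% of them higher in P4 against 46.8% in the main fit. It called 6550 interactions, 5759 of them more positive in pregnant mice, against 2920 of 6242 in the main fit. The median of all genes was -0.17 with the scanner's own log ratios. Of the 188 genes named, 168 kept their direction and their side of the threshold without the block and 171 with the backgrounds as given. A call said above to be lost without an array may have been lost in other alternatives too. Of 18 alternatives, 9 lost the calls of H2-Aa, H2-Ab1 and Cd36, and 8 those of Cdh5, Esr1 and Birc5. Of the 108 interactions called for these genes, 64 were called without the block, 71 with the backgrounds as given and 82 with median centring, each in the same direction. Signs turned for Sox10 with the scanner's ratio and with the authors' series table (-0.10 each), for Hba-a1 with median centring (0.28) and for Wap without replicate 2 of P5 (0.24, against -1.68 without replicate 1 of P5). Among the interactions of genes named here the sign turned only with median centring, for Mag (0.028), Nupr1 (0.046), Pmp22 (0.062), Srebf1 (0.23) and Stat5a (0.32). Here the cause was not tested. Quantile normalization of the array averages (Aquantile) leaves each array's ratios as they are, so it changes nothing by construction. Caseins and smooth muscle genes at the scanner's limit, and 2 arrays a group, limit the precision.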
